A study of Aedes aegypti with 8 samples.

Results

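The study listed candidate heme transporters among the genes whose expression was lowered in Aedes aegypti midguts exposed to heme. These candidates are predicted to cross the membrane more than once. The 10 genes described here are some of the listed candidates that were not knocked down in midguts. Others of that kind are counted below among the 18 further listed genes. They were chosen by the study on the same comparison of heme-exposed with heme-free midguts that is described below, so the direction of the difference is given by the choice, and its values are a description with no test. The 10 genes are AAEL000859, AAEL019869, AAEL003619, AAEL020936, AAEL005013, AAEL024267, AAEL024460, AAEL021618, AAEL010905 and AAEL007191, out of 19712 identifiers in the count table. All 10 passed the filter on low counts, which left 11095 identifiers, and each had at least 135 counts in every library.

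Midguts were dissected from sugar-fed Liverpool strain females 3 to 5 days old and were held for 35 h in serum-free Schneider's Drosophila medium with antibiotics. The treated midguts had 10 µM heme in the medium, and the control midguts had 0 µM heme. There were 4 biological replicates per group. Midguts were pooled within a replicate, and fewer cells of a type and less RNA per cell cannot be told apart. PolyA RNA was sequenced in 8 libraries, with total counts of 50531043 to 56947544 at 10 µM and 46027977 to 54897568 at 0 µM heme. The study's own scaling plot set 10 µM heme replicate 2 and 0 µM heme replicate 1 apart from their replicates, and the listed fold changes appear to come from a comparison without them, although its methods do not state this. Values are therefore given with all 8 libraries and with the 6 left when this pair is taken out.

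Heme is released in the midgut lumen when the hemoglobin of a blood meal is digested, and it serves as a source of iron and as a signal but harms cells when free. Proteins that carry small molecules through a membrane usually span it many times, which is why such genes were sought. The study accepted any gene predicted to span it more than once. AAEL000859, AAEL019869, AAEL020936, AAEL005013, AAEL024267 and AAEL021618 had only the fewest predicted spans that this allowed. In the worm Caenorhabditis elegans, importers of the HRG family carry heme, and their genes are more active when heme is scarce.

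The study's annotation names a protein family for 2 of the 10 genes and none for the other 8. AAEL003619 is a sodium/chloride dependent amino acid transporter, a kind of protein that uses the sodium gradient to bring amino acids into cells. AAEL007191 is annotated as an amino acid transporter, with no further detail. Although not targeted in midguts, AAEL003619 was targeted by double-stranded RNA in Aag2 cells, a cultured line from the same mosquito. RT-qPCR did not establish its knockdown there, and the study left its role in heme transport unresolved. The primers made for AAEL003619 are the sequences at hand that tie a gene of this group to a transcript. They are shown in lower case, 5′ to 3′, without the promoter tail of the double-stranded RNA pair. The other 9 genes had no primers in the study's list.
AAEL003619 double-stranded RNA forward: tcgttacccgggagtgaagat
AAEL003619 double-stranded RNA reverse: tagcgcatacagcccaaacgac
AAEL003619 RT-qPCR forward: actgaagtctggtacgaggc
AAEL003619 RT-qPCR reverse: ggagaagctgttgaacgagg

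Levels are given as CPM, counts brought to a common library total after TMM scaling, a method that corrects the totals for differences in RNA composition. Transcript lengths were not used here, so CPM values are compared between libraries for 1 gene and never between genes. Over all 8 libraries, the log2 fold changes of 10 µM over 0 µM heme ran from -1.32 to -0.62, with a median of -0.84, against a median of 0.02 over all genes tested. In the edgeR exact test at an adjusted p of 0.05 over all genes, 7 of the 10 were called lower, where 2.42% of all genes were called lower. All 4 libraries at 10 µM lay below all 4 at 0 µM for 5 of the 10 genes, and this held for 5.32% of all genes tested. Because the list came from this comparison, neither count is evidence of the direction.

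**Figure D1:**
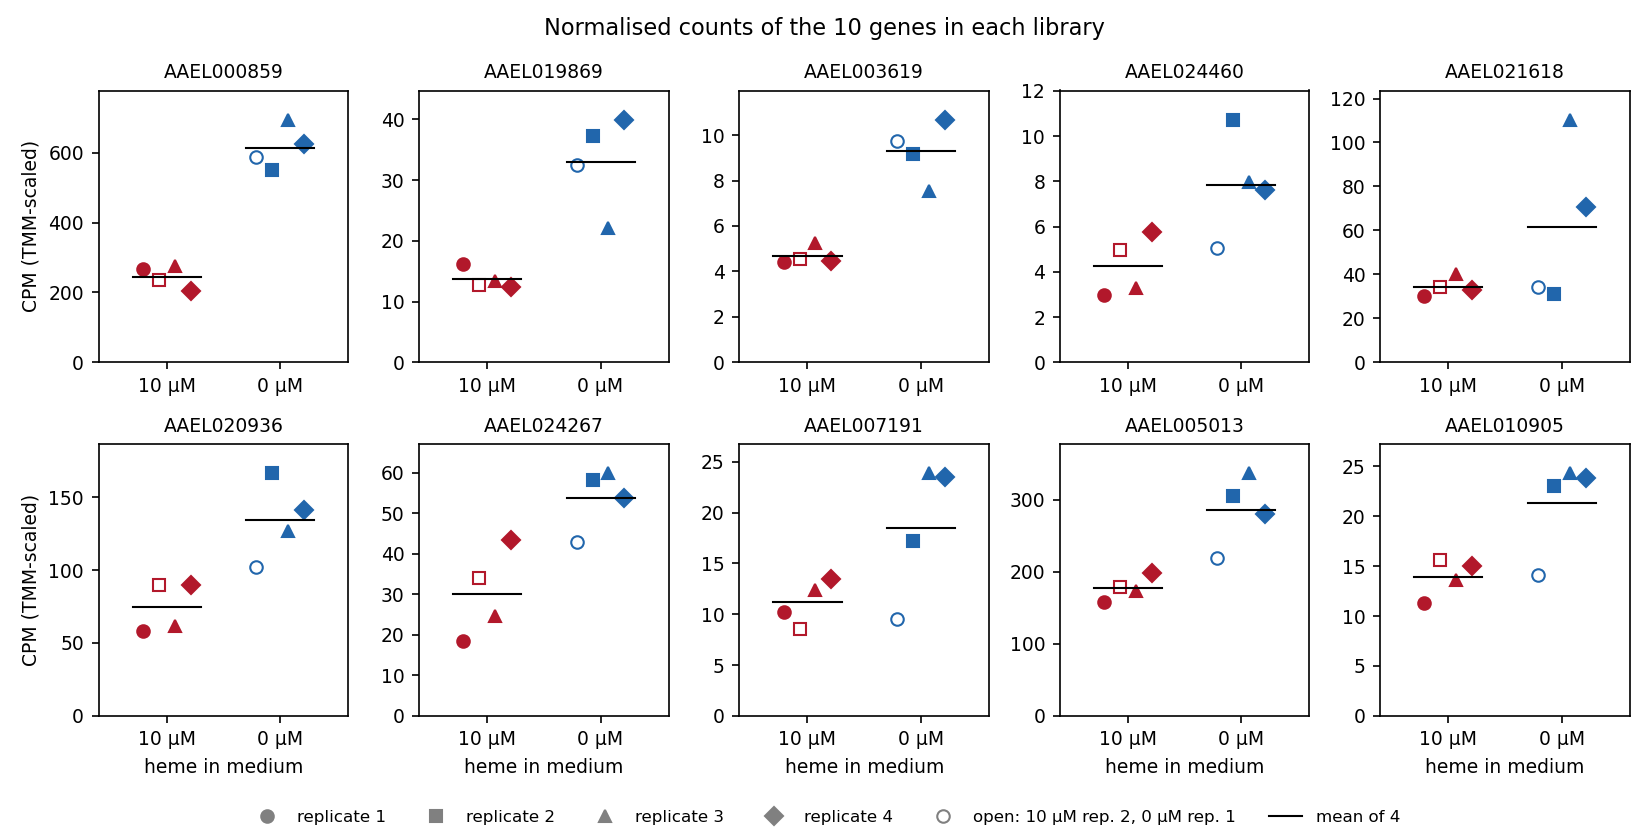
Normalised counts (CPM after TMM scaling, vertical axis from 0) of each of the 10 genes at 10 µM and 0 µM heme, with 1 symbol per library, open symbols for 10 µM heme replicate 2 and 0 µM heme replicate 1, and a line at the mean of 4. The groups stand apart in AAEL000859, AAEL019869, AAEL003619, AAEL020936 and AAEL005013, and overlap in the other 5 genes.

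The first set to be described is AAEL000859, AAEL019869 and AAEL003619, which had the lowest fold changes in the list. AAEL000859, a gene with no family name, had 266, 237, 275 and 205 CPM in 10 µM heme replicates 1 to 4, against 589.7, 550.3, 696 and 624 CPM in the 0 µM replicates. Every heme-exposed library lay at less than the lowest heme-free one, and the replicates of each group lay close together. The log2 fold change was -1.32 ± 0.12 (SE, n = 4 per group), a level 0.400 of that without heme.

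AAEL019869, also without a family name, had 16.2, 12.8, 13.4 and 12.4 CPM at 10 µM heme, against 32.5, 37.3, 22.1 and 39.95 CPM at 0 µM. Its heme-exposed libraries were alike, while 0 µM heme replicate 3 was the nearest of its group to them. With heme its log2 fold change was -1.27 ± 0.21 (SE, n = 4 per group).

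AAEL003619, the sodium/chloride dependent transporter whose primers are shown above, had 4.40, 4.56, 5.23 and 4.45 CPM at 10 µM heme, against 9.74, 9.17, 7.52 and 10.7 CPM at 0 µM. Its counts were low, with 200 to 271 at 10 µM and 409 to 607 at 0 µM, yet the groups did not overlap. As in AAEL019869, replicate 3 was the lowest of the heme-free libraries. With heme its log2 fold change was -0.99 ± 0.12 (SE, n = 4 per group).

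In the next pair of genes the groups also stood apart, but their libraries were more spread. AAEL020936, without a family name, had 58.2, 90.0, 61.8 and 89.7 CPM in 10 µM heme replicates 1 to 4, against 102, 166, 126 and 142 CPM in the 0 µM replicates. Replicates 2 and 4 were the high ones at 10 µM, replicate 1 was the low one at 0 µM, and little room was left between 90.0 and 102 CPM. The log2 fold change was -0.84 ± 0.22 (SE, n = 4 per group).

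AAEL005013, another gene with no family name, had 159, 178, 174 and 199 CPM at 10 µM heme, against 219, 305, 337 and 279.9 CPM at 0 µM. Its heme-exposed libraries varied little, with a coefficient of variation of 9.36%, and replicate 1 was again the lowest at 0 µM. This gave a log2 fold change of -0.69 ± 0.15 (SE, n = 4 per group).

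In the remaining 5 genes the groups overlapped. AAEL024267 had 18.5, 34.0, 24.7 and 43.5 CPM at 10 µM heme, against 42.9, 58.3, 59.9 and 53.8 CPM at 0 µM. The overlap came from 10 µM heme replicate 4 and 0 µM heme replicate 1, which differed by less than 1 CPM. AAEL024460, in which the lowest count of 135 was found, had 2.97, 4.95, 3.28 and 5.75 CPM at 10 µM heme, against 5.04, 10.7, 7.98 and 7.62 CPM at 0 µM. Both genes lack a family name, and in both, replicates 2 and 4 were the high libraries with heme and replicate 1 the low library without it. Their log2 fold changes were -0.83 ± 0.29 and -0.89 ± 0.32 (SE, n = 4 per group), in that order.

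AAEL010905, without a family name, had 11.3, 15.6, 13.7 and 15.1 CPM at 10 µM heme, against 14.1, 23.1, 24.3 and 23.8 CPM at 0 µM. The heme-free libraries other than replicate 1 were alike and lay above every heme-exposed library, whereas replicate 1 lay among them. This gave a log2 fold change of -0.62 ± 0.21 (SE, n = 4 per group), the smallest of the list.

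AAEL007191, the second amino acid transporter, had 10.2, 8.58, 12.3 and 13.5 CPM at 10 µM heme, against 9.54, 17.2, 23.9 and 23.5 CPM at 0 µM. Here too 0 µM heme replicate 1 lay within the range of the heme-exposed libraries, and the others lay above it. The log2 fold change was -0.73 ± 0.34 (SE, n = 4 per group).

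AAEL021618, without a family name, had 30.2, 34.2, 40.2 and 32.8 CPM at 10 µM heme, against 34.3, 31.2, 110.4 and 70.6 CPM at 0 µM. Heme-free replicates 1 and 2 were within the range of the heme-exposed libraries, so the difference in means rested on heme-free replicates 3 and 4. The coefficient of variation was 12.3% with heme and 60.2% without it, the highest of any gene in the list. The log2 fold change was -0.84 ± 0.44 (SE, n = 4 per group), and it was -0.40 without 0 µM heme replicate 3 alone. Over all alternatives it ran from -1.06 to -0.40.

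The 7 genes called by the edgeR exact test with all libraries were AAEL000859, AAEL019869, AAEL003619, AAEL020936, AAEL005013, AAEL024267 and AAEL024460. AAEL024460 was just inside the threshold and AAEL010905 just outside it, at adjusted p = 0.0439 and 0.0513 in the edgeR exact test over all genes. AAEL007191 and AAEL021618 were also not called. Genes just outside the study's own list were not analysed here. The call of AAEL005013 was lost without 0 µM heme replicate 3. Those of AAEL024267 and AAEL024460 were lost when heme-free replicate 2, 3 or 4 or heme-exposed replicate 2 or 3 was the single library left out, and that of AAEL024460 also without heme-exposed replicate 1. The log2 fold changes of these 3 genes over all alternatives were -0.80 to -0.60, -1.06 to -0.66 and -1.13 to -0.70, in that order.

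The pair of libraries that the study set apart was examined next, because 0 µM heme replicate 1 was the lowest of its group for 6 of the 10 genes. Over all genes tested, this library was the lowest of its group for 35.4%. Replicates 2 and 4 were the 2 highest of the heme-exposed libraries for 5 of the 10 genes, against 24.8% of all genes tested. Since the list appears to have been made without this pair, the place of these libraries in the order, and every count and median that leaves them out, may follow from the choice of the genes and is given as a description. Without the pair, all 3 libraries at 10 µM lay below all 3 at 0 µM for 9 of the 10 genes, against 10.9% of all genes tested, with AAEL021618 as the exception.

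In the 6 remaining libraries the edgeR exact test called 9 of the 10 genes lower, where 2.10% of all genes tested were called lower. The gene not called was AAEL021618, and the 2 genes added were AAEL010905 and AAEL007191. These are probably the values on which the genes were selected, so the larger count is no sign of stability. The median log2 fold change was -1.02, against 0.03 over all genes tested, and 5 genes rather than 2 were more than 2-fold lower. AAEL020936 moved most among the genes whose groups stood apart, with a log2 fold change of -1.05 ± 0.23 in 6 libraries and -0.84 ± 0.22 in 8 (SE). AAEL010905 moved to -0.84 ± 0.13 (SE, n = 3 per group) in 6 libraries, and AAEL007191 to -0.85 ± 0.20 (SE, n = 3 per group). In AAEL000859, AAEL019869 and AAEL003619 the values in 6 libraries were -1.33, -1.25 and -0.96, within the standard error of those in 8. The 2 libraries of the pair did not weigh alike. Without 0 µM heme replicate 1 alone, all 10 genes were called, where 311 of all 11293 genes tested were called lower. Without 10 µM heme replicate 2 alone, 5 were called, where 182 of 11289 were called lower. The calls thus differed over all genes too.

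**Figure D2:**
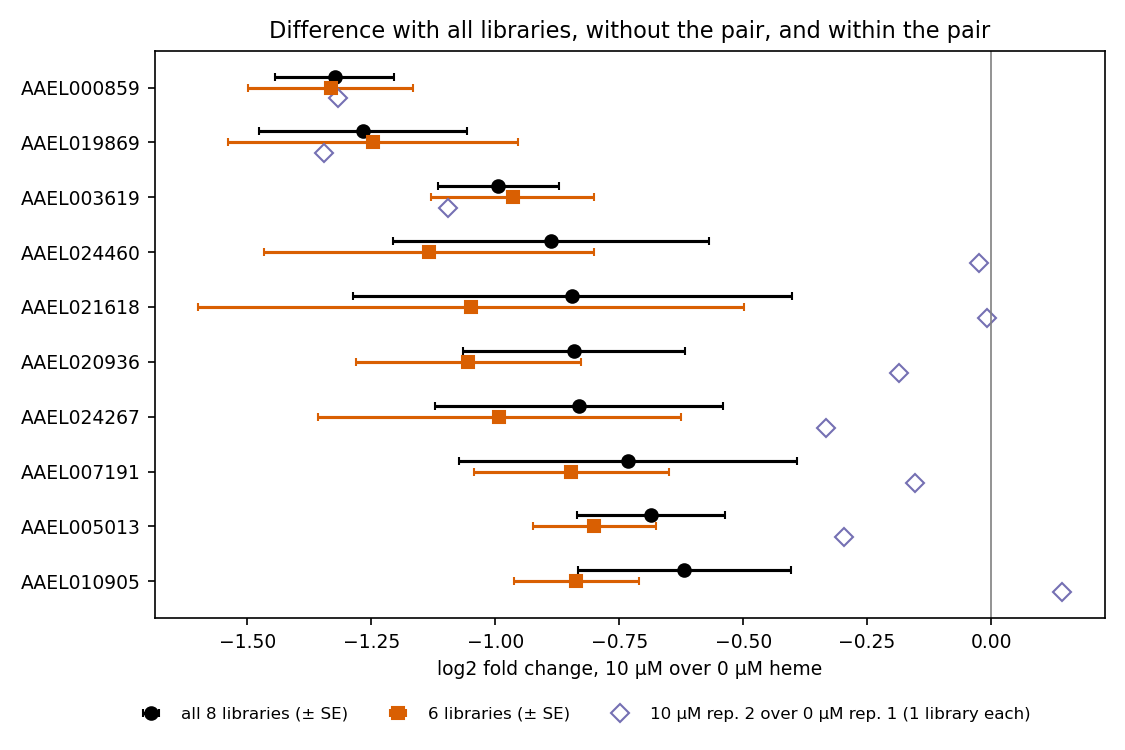
Log2 fold change of 10 µM over 0 µM heme (horizontal axis) for each of the 10 genes, from all 8 libraries and from the 6 left without the pair (bars show the SE), and between 10 µM heme replicate 2 and 0 µM heme replicate 1 alone. In the uppermost 3 genes the points lie together between -1.35 and -0.96, while in the other 7 the pair's own value lies between -0.33 and 0.14.

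The pair itself gave a comparison of 1 library with 1 library, which has no replicate check. Of the 10 genes, 3 were more than 2-fold lower in 10 µM heme replicate 2 than in 0 µM heme replicate 1, and 7 were not, a grouping made after the values were seen. The log2 differences were -1.32 in AAEL000859, -1.35 in AAEL019869 and -1.10 in AAEL003619. Thus in these genes the pair differed by as much as the other libraries did. In the other 7 genes the log2 differences ran from -0.33 in AAEL024267 to 0.14 in AAEL010905, and AAEL010905 was the gene with the higher level in the heme-exposed library. For AAEL024460 the values were 4.95 CPM in 10 µM heme replicate 2 and 5.04 CPM in 0 µM heme replicate 1. For AAEL021618 they were 34.2 and 34.3 CPM in the same order. The median over the 10 genes was -0.24, against -0.02 over all genes tested.

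Within each treatment the genes did not all vary in the same libraries. Of 45 pairs of the genes, 23 had positively correlated deviations, and the median correlation was 0.03, with a range of -0.65 to 0.97. AAEL020936, AAEL005013, AAEL024267, AAEL024460 and AAEL010905 had heme-exposed replicates 1 and 3 below their group mean and replicates 2 and 4 above it. AAEL000859 had the opposite signs in the same 4 libraries. The share of all genes with either pattern of signs was not computed. Without heme, replicate 3 was the library farthest below the group mean in AAEL019869, at -0.54 on the log2 scale, and the farthest above it in AAEL021618, at 1.04. Replicate 1 was below the group mean in 8 of the 10 genes, by as much as -0.87 in AAEL007191, and slightly above it in AAEL019869 and AAEL003619.

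**Figure D3:**
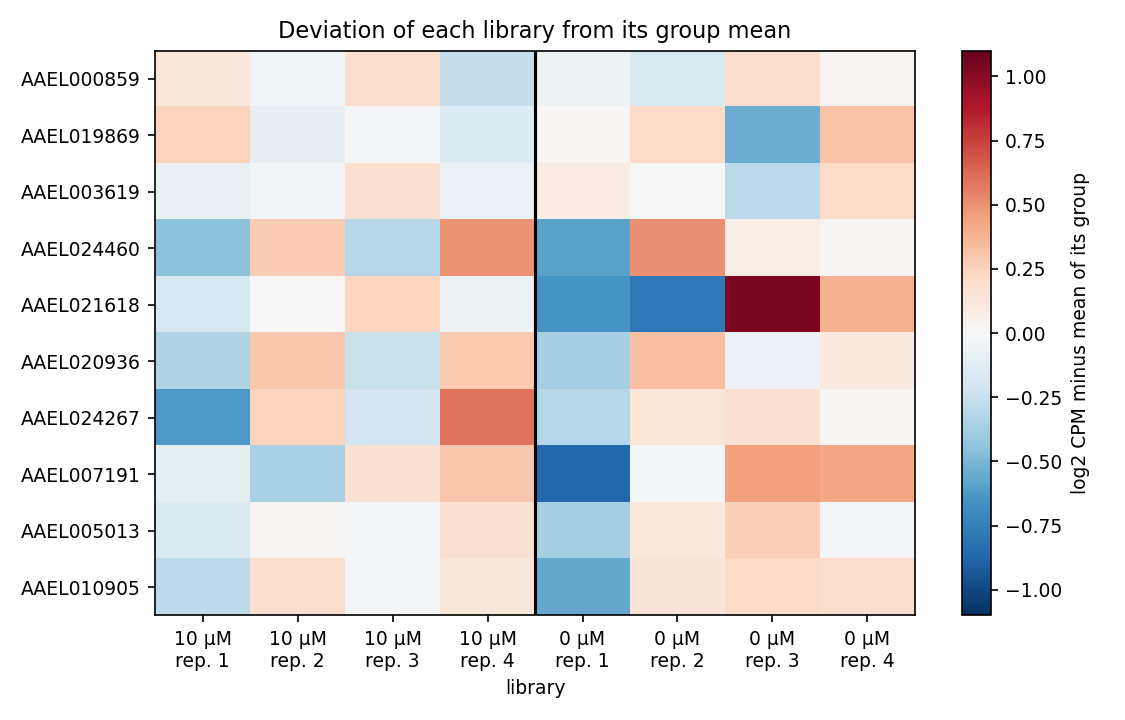
Log2 CPM of each library minus the mean of its own group (colour scale) for the 10 genes in rows and the 8 libraries in columns, with the 10 µM heme libraries left of the line. The 0 µM heme replicate 1 column is blue in the genes with smaller fold changes, and its strongest blue is that of AAEL007191, at -0.87. AAEL021618 has the strongest red, at 1.04 in 0 µM heme replicate 3, and -0.78 in replicate 2.

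The spread between replicates was larger than counting alone would give. The coefficient of variation exceeded the Poisson value in all 20 groups of 4 libraries, by 1.30 to 34.8 times, with a median of 8.41 times. The lowest ratio was found in AAEL003619 at 10 µM heme, where the coefficient of variation was 8.31% and counting would give 6.39%. The widest heme-exposed group was that of AAEL024267, at 36.2%. No other identifier in the table had counts within 2% of those of any of the 10 genes in all 8 libraries, so none of them had its counts repeated under another identifier.

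The mean profile of the 10 genes was also compared with that of every other tested gene, as log2 CPM centred over the 8 libraries. In the heme-exposed replicates 1 to 4 the mean centred values were -0.62, -0.39, -0.45 and -0.29, against 0.07, 0.49, 0.59 and 0.61 in the heme-free ones. The nearest genes outside the list were AAEL018255, AAEL019466 and AAEL004964, with root mean square differences of 0.112, 0.115 and 0.117 on the log2 scale. Their annotation was not given in the sources used here. Among the 10 genes, the nearest to the mean was AAEL005013, at 0.129, and the farthest was AAEL021618, at 0.476.

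As AAEL003619 and AAEL007191 are amino acid transporters, 10 other genes that the study's tables annotate in that way were examined. These tables were held only in part, so the set is not complete. Of the 10 genes, 9 passed the filter on low counts, and AAEL007458, with 1 to 5 counts per library, did not. In the edgeR exact test 1 of the 9 was called, against 4.63% of all genes tested in either direction. This was AAEL002557, a cationic amino acid transporter that the study also listed on these samples and knocked down in midguts. It had 2.40, 2.83, 2.92 and 3.10 CPM at 10 µM heme, against 7.29, 5.76, 6.76 and 6.60 CPM at 0 µM.

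The relative closest by name was AAEL003618, the other sodium/chloride dependent amino acid transporter, which the study listed as well. It had 3.46, 5.07, 4.39 and 2.92 CPM at 10 µM heme, against 3.84, 6.75, 5.26 and 5.33 CPM at 0 µM, and the groups overlapped. Its log2 fold change was -0.42 ± 0.24 (SE, n = 4 in each group), with an adjusted p of 0.479 in the edgeR exact test, where AAEL003619 had -0.99 ± 0.12. Whether these 2 values differ was not tested. Without the pair, the log2 fold change of AAEL003618 was -0.70 ± 0.20 (SE, n = 3 per group), which was not called either (edgeR exact test, adjusted p = 0.0579). The other 7 tested transporters had log2 fold changes of -0.23 in AAEL003919 to 0.02 in AAEL002525. AAEL005213, annotated as a putative amino acid transporter, had a mean of 1065 ± 168 CPM at 10 µM and 1078 ± 217 CPM at 0 µM heme (SD, n = 4 each). The median of all 9 was -0.13.

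**Figure D4:**
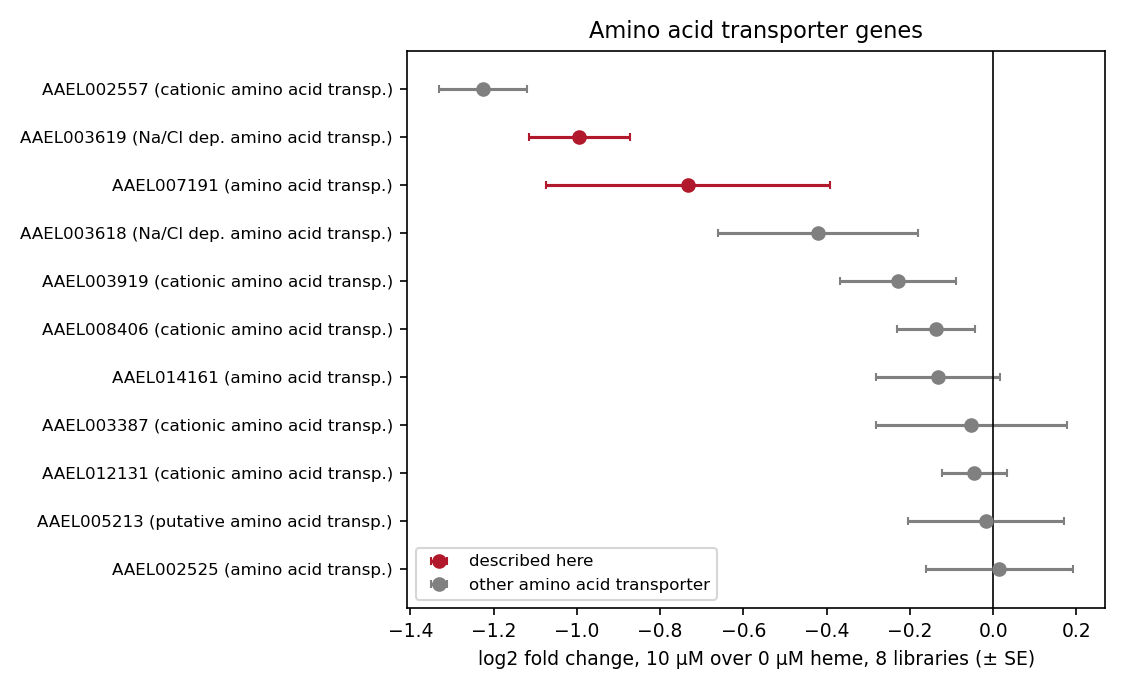
Log2 fold change of 10 µM over 0 µM heme from all 8 libraries (horizontal axis, bars show the SE) for AAEL003619 and AAEL007191 in red and the 9 other tested amino acid transporter genes in grey. AAEL002557 and the red points lie farthest left, and the lowest 7 points lie between -0.23 and 0.02.

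The study listed 18 further genes as lower with heme, 8 of which it knocked down in midguts. With all libraries, the median log2 fold change was -0.84 in the 10 genes described here, -0.55 in the 18 and -0.63 in the 8. The edgeR exact test called 7 of the 10, 11 of the 18 and 6 of the 8, against 2.42% of all genes tested. Without the pair, 9 of the 10, 17 of the 18 and 8 of the 8 were called, with medians of -1.02, -0.68 and -0.71. The median coefficient of variation at 0 µM heme was 21.4% in the 10 genes, 13.8% in the 18 and 16.7% over all genes tested. At 10 µM heme it was 13.4%, 11.5% and 16.5%, in the same order. All 3 sets were taken by the study from this same comparison, apparently without the pair, so no difference between them was tested.

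Few of the identifiers carry a name that could mark a cell type. Paramyosin, AAEL000485, a muscle protein, had 107 to 119 CPM at 10 µM and 108 to 135 CPM at 0 µM heme, with a log2 fold change of -0.09 ± 0.08 (SE, n = 4 in each group) and an adjusted p of 0.907 in the edgeR exact test. Of 4 enzymes taken as digestive by their annotated names alone, the trypsin AAEL002273 had 9 to 24 counts per library and the alpha-amylase AAEL010536 had 2 to 11. More counts were found for the other 2 of the 4. The glutamate carboxypeptidase AAEL001588 had 95.7 to 132 CPM at 10 µM and 109.8 to 155 CPM at 0 µM heme. The leucine aminopeptidase AAEL001649 had 37.8 to 41.0 CPM at 10 µM and 38.3 to 47.1 CPM at 0 µM.

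The summed CPM of the 4 enzymes was 134 to 173 at 10 µM and 149 to 200.5 at 0 µM heme. Most of the counts in this sum were those of AAEL001588, so it stands mainly for 1 gene. With all libraries the adjusted p of the edgeR exact test was 0.491 in AAEL001588, 0.793 in AAEL001649 and 0.745 in AAEL002273, and AAEL010536 did not pass the filter. Without the pair it called AAEL001588 lower, with a log2 fold change of -0.45 ± 0.10 (SE, n = 3 per group) and an adjusted p of 0.0438, against -0.27 ± 0.14 in all 8 libraries. AAEL001649 had -0.21 ± 0.05 without the pair and -0.13 ± 0.07 with it, and was not called. Thus 1 of the 3 enzymes tested was called lower in the 6 libraries, as were 9 of the 10 genes, where 2.10% of all genes tested were called lower. Unlike the enzymes, the 10 genes were probably selected on these same values, so the counts are not comparable. The part of the cells with AAEL001588 in the values of the 10 genes was not tested. These identifiers are too few to check the labelled tissue.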

How the data were processed

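Per the labels and the study's methods, HISAT2 2.1.0 aligned the reads to AaegL5, SAMtools dropped poorly mapped ones, and bedtools 2.19.1 counted reads per transcript. The handling of strand and of reads shared between genes is not given in the sources used. The authors deposited these as raw counts per identifier. No identifier matched the RefSeq table (0 matches), so family names come from the study's tables, and positions and protein sequences are not given.

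The exact test of edgeR 4.0.16 (R 4.3.3), the test the study used, was run on the counts after filterByExpr, TMM and estimateDisp, with Benjamini-Hochberg adjustment over all genes and a threshold of 0.05. SEs are those of the difference between group means of the replicates' log2 CPM (prior count 2). The log2 fold changes printed beside them come from the exact test, a different estimate that can depart from that difference where replicates are spread. An SE therefore describes replicate spread and is not the error of the printed value itself. Alternatives were edgeR's quasi-likelihood test with and without a replicate block, DESeq2 1.42.0, other scalings and filters, and leaving out libraries. Another was voom from limma 3.58.1 with quality weights, which give more variable libraries less weight. The tests were tested on simulated data, except for the block. By rule, genes named with values were all members, other amino acid transporters of the list, cell type markers and the 3 nearest profiles. Members and lists were chosen with earlier results of these data known.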

Additional observations from a re-analysis of the deposited data

Results flagged for a closer look

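AAEL010905 had 14.1 CPM in 0 µM heme replicate 1, against 23.1 to 24.3 CPM in the other 0 µM libraries. The gap took 0.876 of the range of the group, above Dixon's critical value for 4 values. It was the 1 group past that value among the 20 groups of the 10 genes, and chance gives about 1 in 20. The part of the library in the value was not tested.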

How the results depend on the processing

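All 10 genes had a negative log2 fold change in each of the 17 alternatives, a direction given by the choice of the genes. Each of the 170 values moved by less than the spread between replicates, the SD of a gene's deviations from its group means. Leaving out a library can hardly move a value by more than that spread, so this is no check of stability. In AAEL021618, where that spread was widest, the value was -0.40 without 0 µM heme replicate 3, against -0.84 with all libraries. AAEL000859, AAEL019869, AAEL003619 and AAEL020936 were called in all 17, AAEL005013 in 16, AAEL024267 in 10, AAEL024460 in 8, AAEL010905 in 6, and AAEL021618 and AAEL007191 in 2 each. Leaving out 1 library gave 4 to 10 of the genes called. The count was 10, 6, 4 and 5 without 0 µM heme replicates 1 to 4, and 6, 5, 5 and 7 without the 10 µM replicates. The same fits called 333 to 549 genes in all, with the lowest count without 10 µM heme replicate 3. The quasi-likelihood test called 5 of the 10 genes and 316 in all, against 7 and 514 in the exact test. DESeq2 and limma-voom called 8 each, with 716 and 590 genes in all. The cause of these differences was not tested. Scaling by library totals called 5 of the 10 genes and 442 in all, and gave 32.1% of called genes as higher, against 47.9% under TMM. Of the other amino acid transporters, 1 was called in each alternative.

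Same-numbered libraries were not taken as pairs, since the sources used do not state a pairing. In replicates 1 to 4 their deviations correlated across genes, which are not independent replicates, at 0.515, 0.0702, 0.0616 and 0.157. Heme-exposed replicates 1 and 3 were best matched by the heme-free library of the same number, and replicates 2 and 4 were not. Whether same-numbered libraries share an origin was not tested. Adding a replicate block to the quasi-likelihood test gave 8 of the 10 genes and 725 in all, against 5 and 316 without the block. Depth was lowest in AAEL024460 and AAEL003619, with 135 to 619 counts per library.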
